A study of Arabidopsis thaliana with 24 samples.

Results

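Aquaporins are channel proteins that let water, and in some members other small uncharged molecules, cross a membrane. The 35 aquaporin loci of Arabidopsis thaliana were taken as a family by locus, a rule that uses no measured value: 13 plasma membrane intrinsic proteins (PIP), 10 tonoplast intrinsic proteins (TIP), 9 NOD26-like intrinsic proteins (NIP) and 3 small basic intrinsic proteins (SIP). They are 35 of the 32833 genes in the count table. Of these, 29 had enough counts to be tested (13 PIP, 6 TIP, 7 NIP and 3 SIP genes), 6 did not, and 2 of those 6 had no count in any library. Members are written with a hyphen, the form in use for the proteins, in place of the semicolon of the gene symbols.

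The 24 libraries were made from polyA RNA of whole roots of wild-type Col-0 seedlings grown on agar and harvested on day 6 after stratification, in 8 groups of 3. In the shift groups, seedlings grew on mesh and were moved on day 5 to plates of the same KNO3 level. In the long-term groups, seedlings stayed on the same treatment for all of their growth. Within each exposure, roots received isoxaben at 2.5 nM, an inhibitor of cellulose synthesis, or mock treatment, and did so at 60 mM KNO3 or at 6 mM KNO3. The groups were therefore shift isoxaben and shift mock at 60 mM, shift isoxaben and shift mock at 6 mM, and the same 4 combinations in long-term roots. Nitrate, potassium and ionic strength all differ between the KNO3 levels, and shift and long-term groups differ in mesh and transfer as well as in the length of the treatment. The comparisons ask how roots respond to isoxaben, and whether that response depends on KNO3 and on exposure. The labels do not say whether replicates came from separate sets of plants, so p-values measure the spread between these libraries, which may be technical.

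PIP proteins sit in the plasma membrane and set much of the water permeability of root cells. In maize, PIP1 proteins reach the plasma membrane more readily when a PIP2 protein is present. TIP proteins sit in the membrane of the vacuole, where they let water, and in some members ammonia or urea, pass between vacuole and cytosol, and their genes are active in expanding cells. NIP proteins carry metalloids such as boric acid, arsenite and antimonite more readily than water, and SIP proteins are found in the endoplasmic reticulum. In roots, PIP and TIP genes are known to be regulated by salt, drought, nutrient supply and hormones.

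The family is recognised by a short signature that lines the pore and is repeated along the protein. The coding bases around the first signature are shown 5′ to 3′ for the TIP and NIP genes that were called in the same direction with isoxaben in both exposures at 60 mM, and for NIP5-1 and SIP1-1, whose signature differs. They were read from the RefSeq genome TAIR10.1, with the bases of the signature in capitals.

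TIP1-1: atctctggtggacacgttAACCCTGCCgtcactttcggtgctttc

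TIP2-1: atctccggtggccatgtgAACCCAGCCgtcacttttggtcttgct

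NIP1-1: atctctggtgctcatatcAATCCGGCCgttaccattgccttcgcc

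NIP1-2: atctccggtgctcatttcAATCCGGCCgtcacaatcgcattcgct

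NIP5-1: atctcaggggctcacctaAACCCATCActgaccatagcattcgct

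SIP1-1: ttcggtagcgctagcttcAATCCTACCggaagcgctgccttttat

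The stretches lie at chr2:15445724-15445768 (plus strand), chr3:5505865-5505909 (plus), chr4:10422932-10422976 (minus), chr4:10366656-10366700 (plus), chr4:6432351-6432395 (minus) and chr3:1073798-1073842 (minus). All are coding sequence. The signature codons read the same amino acids in TIP1-1, TIP2-1, NIP1-1 and NIP1-2, while the last codon is of another kind in NIP5-1 and SIP1-1.

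A pair of PIP genes limits what counts can tell. PIP2-2 (chr2:15613368-15615022, minus strand) and PIP2-3 (chr2:15617635-15619155, plus strand) are neighbours that point away from each other, with 2612 bases between their starts. Over 858 aligned coding bases they differ at 45, an identity of 94.8%, and the longest run without a difference is 242 bases. The 60-base window with the most differences, 10, is shown because reads that cover it can be told apart. Capitals mark the bases that differ.

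PIP2-2: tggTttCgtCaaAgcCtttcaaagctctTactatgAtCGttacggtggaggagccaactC

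PIP2-3: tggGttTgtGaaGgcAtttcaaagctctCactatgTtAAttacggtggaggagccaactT

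The windows are exonic, at chr2:15614198-15614257 and chr2:15618313-15618372 of TAIR10.1. Of the 50-base exon windows of these genes, 14.7% for PIP2-2 and 16.5% for PIP2-3 recur elsewhere in the genome, so part of the reads of each could be lost or shared. The same share was 10.4% for NIP2-1, 9.2% for NIP3-1, 3.1% each for NIP4-1 and NIP4-2, and 0 for the other members. NIP6-1 overlaps the exons of AT1G80750 on the opposite strand, which had 1605 to 2292 counts in a library against 90 to 190 for NIP6-1. How strand was handled in counting is not stated in the sources used here. TIP5-1 had no count beside 99 to 179 for its opposite-strand partner AT3G47450. TIP3-1 had at most 4 beside 592 to 771 for AT1G73200, so few reads of these partners were counted for the members. Whether the same holds for NIP6-1 was not tested, so some uncertainty stays with its values. TIP2-1 also has opposite-strand partners, but these had at most 9 counts beside 1789 to 7544 for TIP2-1. SIP2-1 had 1045 to 1290 counts and its opposite-strand partner AT3G56940 had 302 to 1298.

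Library totals ranged from 18902538 to 20519913 counts, and 3 counts, the upper bound taken for a library without a count, correspond to at most 0.167 CPM (a count divided by the adjusted library size, times 1000000). Such limits cover counting error only. All pairs of replicates varied beyond sampling of reads (chi-square over its degrees of freedom 2.64 to 21.7), most of all long-term isoxaben replicates 1 and 2 at 60 mM. The summed level of 20 photosynthesis genes, a measure of shoot tissue in the sample, was 193 to 901 CPM over all libraries. In long-term roots at 60 mM it was 193, 714 and 258 CPM with isoxaben and 560.4, 805 and 679 CPM with mock. Of 7 endodermis genes, 5 root hair genes and 6 xylem genes, all were detected and tested.

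Together the 35 loci took 6803 ± 895 CPM (SD over 24 libraries) of each library. TIP1-2 (AT3G26520) and TIP1-1 (AT2G36830), water channels of the vacuolar membrane, were the highest by level per length, with means over all libraries of 799.8 and 772 CPM per kb of exon. Their library ranges, 589 to 1123 and 508 to 1242 CPM per kb, overlapped, so their order is not separated. The PIP genes PIP2-1 (AT3G53420, 468 CPM per kb), PIP1-2 (AT2G45960, 437), PIP2-7 (AT4G35100, 367), PIP2-2 (AT2G37170, 344), PIP1-3 (AT1G01620, 266) and PIP1-1 (AT3G61430, 243) came next. Each of these 6 overlapped its neighbour in level. TIP4-1 (AT2G25810), TIP2-2 (AT4G17340) and TIP2-1 (AT3G16240) lay between 158 and 187 CPM per kb. The highest NIP gene was NIP1-1 (AT4G19030) at 126 CPM per kb, and the highest SIP gene was SIP1-1 (AT3G04090) at 103 CPM per kb. At the low end, PIP2-5 (AT3G54820), NIP4-2 (AT5G37820) and NIP2-1 (AT2G34390) averaged 1.79, 0.734 and 0.326 CPM per kb.

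**Figure D1:**
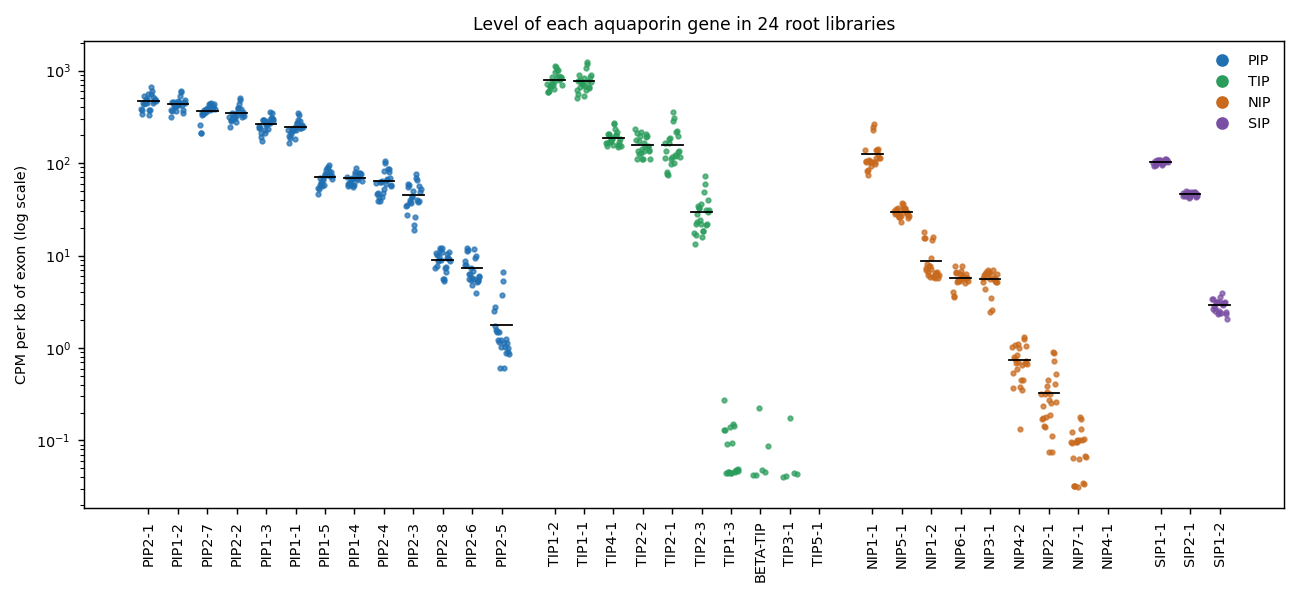
Level of each aquaporin gene, in CPM per kb of exon on a log scale. Points are libraries with at least 1 count, coloured by subfamily and ordered by mean within it, and black lines are means over the 24 libraries where all of them had a count. TIP1-2 and TIP1-1 lie highest, with means of 799.8 and 772 CPM per kb, and 6 genes have no line because at least 1 library had no count.

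Isoxaben was tested against mock in each of the 4 settings with edgeR's quasi-likelihood test over all 20546 genes tested, with adjusted p under 0.05 as the threshold for a call. More members were called at 60 mM than at 6 mM KNO3 in both exposures. At 60 mM in shift roots, 14 of 29 members were called, 6 higher and 8 lower with isoxaben, where 12.9% of all genes were called (7.35% higher, 5.59% lower). At 6 mM in shift roots, 2 members were called, both higher, beside 0.949% of all genes (0.628% higher, 0.321% lower). At 60 mM in long-term roots, 17 members were called, 7 higher and 10 lower, beside 31.9% of all genes (16.0% higher, 15.8% lower). At 6 mM in long-term roots, 4 members were called, 2 in each direction, beside 5.69% of all genes (3.9% higher, 1.79% lower). Of the 29 members tested, 21 were called in at least 1 isoxaben comparison, beside 35.7% of all genes tested (7335). The shares of all genes given here and below are not matched for level, and higher counts make a call easier. By CPM per kb, the 6 TIP genes tested lay at the 80.3 to 99.8 percentile of genes tested. PIP genes lay at 16.1 to 99.3, NIP genes tested at 2.31 to 95.7 and SIP genes at 23.1 to 94.7. The part of level in the calls was not tested. The median log2 fold change of the members stayed near 0 in all 4 settings, at -0.061, 0.019, -0.063 and 0.052 in the order given, and that of all genes tested was between -0.0092 and 0.0088.

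The 2 comparisons at 60 mM share no library. Of the 6 members that rose with isoxaben in shift roots, 4 (66.7%) were among the 7 that rose in long-term roots (57.1% of those): TIP2-1, NIP1-1, NIP1-2 (AT4G18910) and PIP2-4 (AT5G60660). Over all genes tested, 78.2% of those that rose in shift roots were among those that rose in long-term roots (35.9% of those). Of the 8 that fell in shift roots, 5 (62.5%) were among the 10 that fell in long-term roots (50%): PIP1-2, PIP2-1, PIP2-3 (AT2G37180), PIP2-6 (AT2G39010) and TIP1-1. Over all genes tested, the shares of those that fell were 63.9% and 22.5%. As shares of the calls in shift roots, the members were below all genes, and as shares of the calls in long-term roots they were above, differences that were not tested. TIP4-1 was called in both with opposite directions.

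**Figure D2:**
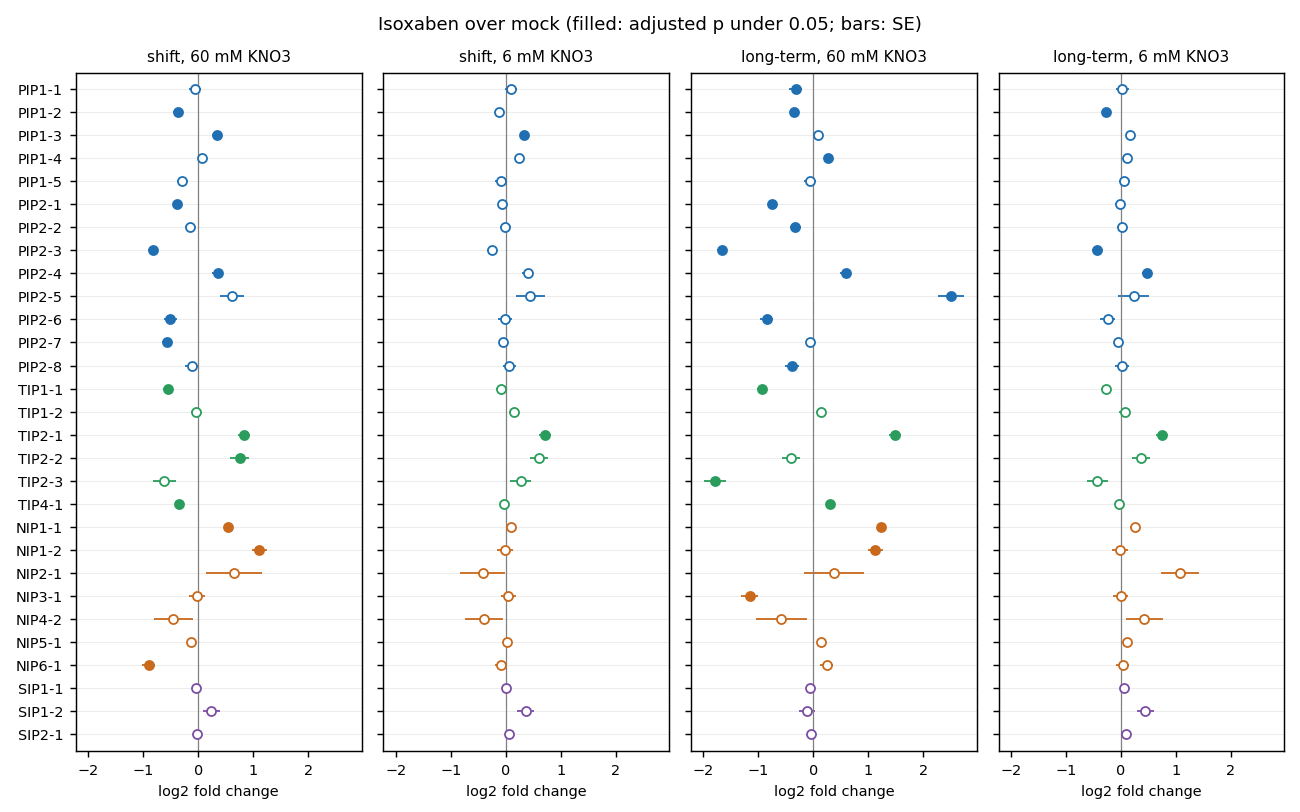
Log2 fold change of isoxaben over mock for the 29 members tested, in shift and long-term roots at 60 and 6 mM KNO3. Points are estimates coloured by subfamily, bars are SE, and filled points have an adjusted p under 0.05. The 2 panels at 60 mM hold 14 and 17 filled points, and those at 6 mM hold 2 and 4.

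Markers of root cell types were read in the same libraries, and several changed with isoxaben, in settings that differed between cell types. Summed over 7 endodermis genes, which include the CASP genes of the Casparian strip, levels at 60 mM were 216 to 292 CPM with isoxaben and 411 to 502 CPM with mock in shift roots, where 5 of the 7 fell. Long-term sums at 60 mM were 267 to 381 CPM with isoxaben and 562 to 668 CPM with mock, where 6 of the 7 fell. At 6 mM the endodermis sums did not go this way: they were 410.1 to 494 CPM with isoxaben and 356 to 414 CPM with mock in shift roots, and 509 to 557 CPM with isoxaben and 407 to 437 CPM with mock in long-term roots, where in each exposure 6 of the 7 had positive estimates that were not called and 1 fell. The 5 root hair genes summed to 1064 to 1757 CPM with isoxaben and 297 to 386 CPM with mock in long-term roots at 60 mM, where all 5 rose, and all 5 rose in long-term roots at 6 mM as well. Of the 5, 2 rose in shift roots at 60 mM and none was called in shift roots at 6 mM. All 6 xylem genes fell in long-term roots at 60 mM, with sums of 181 to 201 CPM with isoxaben and 336 to 375 CPM with mock. None of the 6 was called in shift roots at 60 mM, and their sums were 316 to 348 CPM with isoxaben and 309.7 to 357 CPM with mock. At 6 mM, 2 of the 6 fell in long-term roots and none was called in shift roots. Of the 20 photosynthesis genes, 8 fell in long-term roots at 60 mM and none was called in the other 3 settings. Of 3 dividing cell genes, 2 fell in long-term roots at 60 mM and 1 fell there at 6 mM. Of 3 phloem genes, 2 fell in long-term roots at 60 mM and 1 rose there at 6 mM, and in shift roots at 60 mM 1 rose and 1 fell. Of 3 root cap genes, 1 rose in long-term and 2 fell in shift roots at 60 mM. No gene of these 3 lists was called in shift roots at 6 mM. Beside these counts, 7.35% of all genes rose and 5.59% fell in shift roots at 60 mM, and 16.0% rose and 15.8% fell in long-term roots. At 6 mM the shares were 0.628% and 0.321% in shift roots, and 3.9% and 1.79% in long-term roots. The part of these cell types in the aquaporin results was not tested, and in whole roots fewer cells of a type and less RNA per cell cannot be told apart.

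More PIP genes fell than rose at 60 mM KNO3 in both exposures. Of the 13 tested, 2 rose and 5 fell with isoxaben in shift roots, and 3 rose and 7 fell in long-term roots, while 6 and 3 were not called. Among all genes tested, 7.35% rose and 5.59% fell in shift roots, and 16.0% rose and 15.8% fell in long-term roots. Summed over the 13 genes, the level was 2905 ± 257 CPM with isoxaben and 3429 ± 179 CPM with mock in shift roots, and 3728 ± 192 CPM with isoxaben and 4547 ± 338 CPM with mock in long-term roots (SD, n = 3 each). The ranges of these sums did not overlap in either exposure. The fall was steepest in PIP2-3, a water channel first found as a transcript that rises on drying.

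In shift roots at 60 mM, PIP2-3 had 41.9, 33.5 and 43.4 CPM with isoxaben, against 66.7, 72.5 and 70.2 CPM with mock (log2 fold change -0.82 with SE 0.09, adjusted p 4.28e-07). In long-term roots at 60 mM it had 22.8, 26.4 and 32.1 CPM with isoxaben, against 84.2, 93.0 and 80.6 CPM with mock (log2 fold change -1.66 with SE 0.10, adjusted p 7.01e-13). All isoxaben libraries lay below all mock libraries in both exposures, and the long-term isoxaben libraries were the lowest of all 24. Its neighbour PIP2-2, a contributor to root water uptake, had 427, 332 and 397 CPM with isoxaben and 388, 472 and 422 CPM with mock in shift roots, where the ranges overlapped and it was not called (log2 fold change -0.15, adjusted p 0.410). Long-term values of PIP2-2 were 442, 536 and 533 CPM with isoxaben and 585, 673 and 643 CPM with mock (log2 fold change -0.33). Whether the difference between the neighbours holds for reads that separate them could not be read from gene counts.

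PIP2-1, an abundant water channel of the root whose activity is controlled by phosphorylation, also fell. It had 602, 537 and 585 CPM with isoxaben and 709.6, 838 and 691 CPM with mock in shift roots (log2 fold change -0.38, adjusted p 0.00198). After long-term treatment it had 526, 589 and 594 CPM with isoxaben and 879.5, 1037 and 950.2 CPM with mock (log2 fold change -0.75 with SE 0.08, adjusted p 5.63e-08). Neither pair of ranges overlapped. PIP1-2, a PIP1 channel that contributes to root hydraulic conductivity, had 597, 501 and 580.0 CPM with isoxaben and 738, 714 and 726 CPM with mock in shift roots (log2 fold change -0.38 with SE 0.07, adjusted p 5.56e-04). Its long-term values were 744, 735 and 673 CPM with isoxaben and 848, 963 and 942 CPM with mock (log2 fold change -0.35). The isoxaben libraries were again the lower ones throughout.

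PIP2-6, a plasma membrane channel known mostly from leaves, had 17.0, 18.6 and 17.1 CPM with isoxaben and 24.3, 26.1 and 24.5 CPM with mock in shift roots (log2 fold change -0.51). Long-term libraries of PIP2-6 had 10.3, 14.7 and 11.9 CPM with isoxaben and 25.1, 20.1 and 21.3 CPM with mock (log2 fold change -0.85). Both falls left the ranges apart. PIP2-7, a water channel that traffics with syntaxins, fell in shift roots alone: it had 417, 338 and 338 CPM with isoxaben and 527, 559 and 541 CPM with mock there (log2 fold change -0.57 with SE 0.08, adjusted p 3.60e-06). With long-term exposure it had 612, 619.6 and 696 CPM with isoxaben and 607, 700.5 and 708 CPM with mock, ranges that overlapped (log2 fold change -0.06, adjusted p 0.581). The difference between the effects was itself called, at 0.51 (SE 0.11) on the log2 scale for the long-term minus the shift effect (adjusted p 0.00208).

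PIP2-5, known as one of the few PIP genes that rise under drought, went the other way. It had 4.54, 4.96 and 3.10 CPM with isoxaben and 2.81, 2.65 and 2.76 CPM with mock in shift roots, ranges that did not overlap, but it was not called there (log2 fold change 0.61, adjusted p 0.0797). The long-term groups of PIP2-5 had 6.67, 11.9 and 9.51 CPM with isoxaben and 2.02, 1.09 and 1.82 CPM with mock (log2 fold change 2.50 with SE 0.23, adjusted p 1.88e-09), a 5.67-fold difference. The long-term rise is the largest of any member in any pairwise comparison, at a low level, and the long-term effect exceeded the shift effect by 1.89 on the log2 scale (adjusted p 2.47e-04). PIP2-4, a PIP2 channel known mostly from roots, had 87.8, 67.2 and 69.0 CPM with isoxaben and 56.3, 62.7 and 56.1 CPM with mock in shift roots (log2 fold change 0.35). Its long-term values were 120.2, 153 and 146 CPM with isoxaben and 86.3, 94.0 and 98.4 CPM with mock (log2 fold change 0.59). All isoxaben libraries of PIP2-4 were above all mock libraries in both exposures.

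PIP1-3, a PIP1 channel, had 389.6, 368 and 369.9 CPM with isoxaben and 300.1, 327 and 268 CPM with mock in shift roots, where it rose (log2 fold change 0.33). Under long-term treatment it had 406, 419.8 and 445 CPM with isoxaben and 359, 422 and 421 CPM with mock, ranges that overlapped (log2 fold change 0.08, adjusted p 0.482). Among the other PIP genes, PIP1-4 (AT4G00430), which like PIP2-5 is known to rise under drought, rose in long-term roots at 60 mM (0.26), and PIP1-1 (-0.33) and PIP2-8 (AT2G16850, -0.39) fell there. PIP1-5 (AT4G23400) was called in neither exposure at 60 mM.

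Several of these PIP calls were lost when 1 library was left out, in most cases any of several libraries. In shift roots at 60 mM, the call was lost for PIP2-4 without isoxaben replicate 1 or mock replicate 1 or 3 (adjusted p up to 0.142). In long-term roots at 60 mM it was lost for PIP1-1 without isoxaben replicate 1 or mock replicate 2 or 3 (adjusted p up to 0.143), PIP2-2 without isoxaben replicate 1 or mock replicate 2 (adjusted p up to 0.0763) and PIP1-4 without isoxaben replicate 3 (adjusted p up to 0.0522). There it was lost also for PIP2-8 without isoxaben replicate 1 or 3 or mock replicate 1 or 3 (adjusted p up to 0.0962). The other PIP calls at 60 mM were kept in every fit that left out 1 library of the groups compared.

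**Figure D3:**
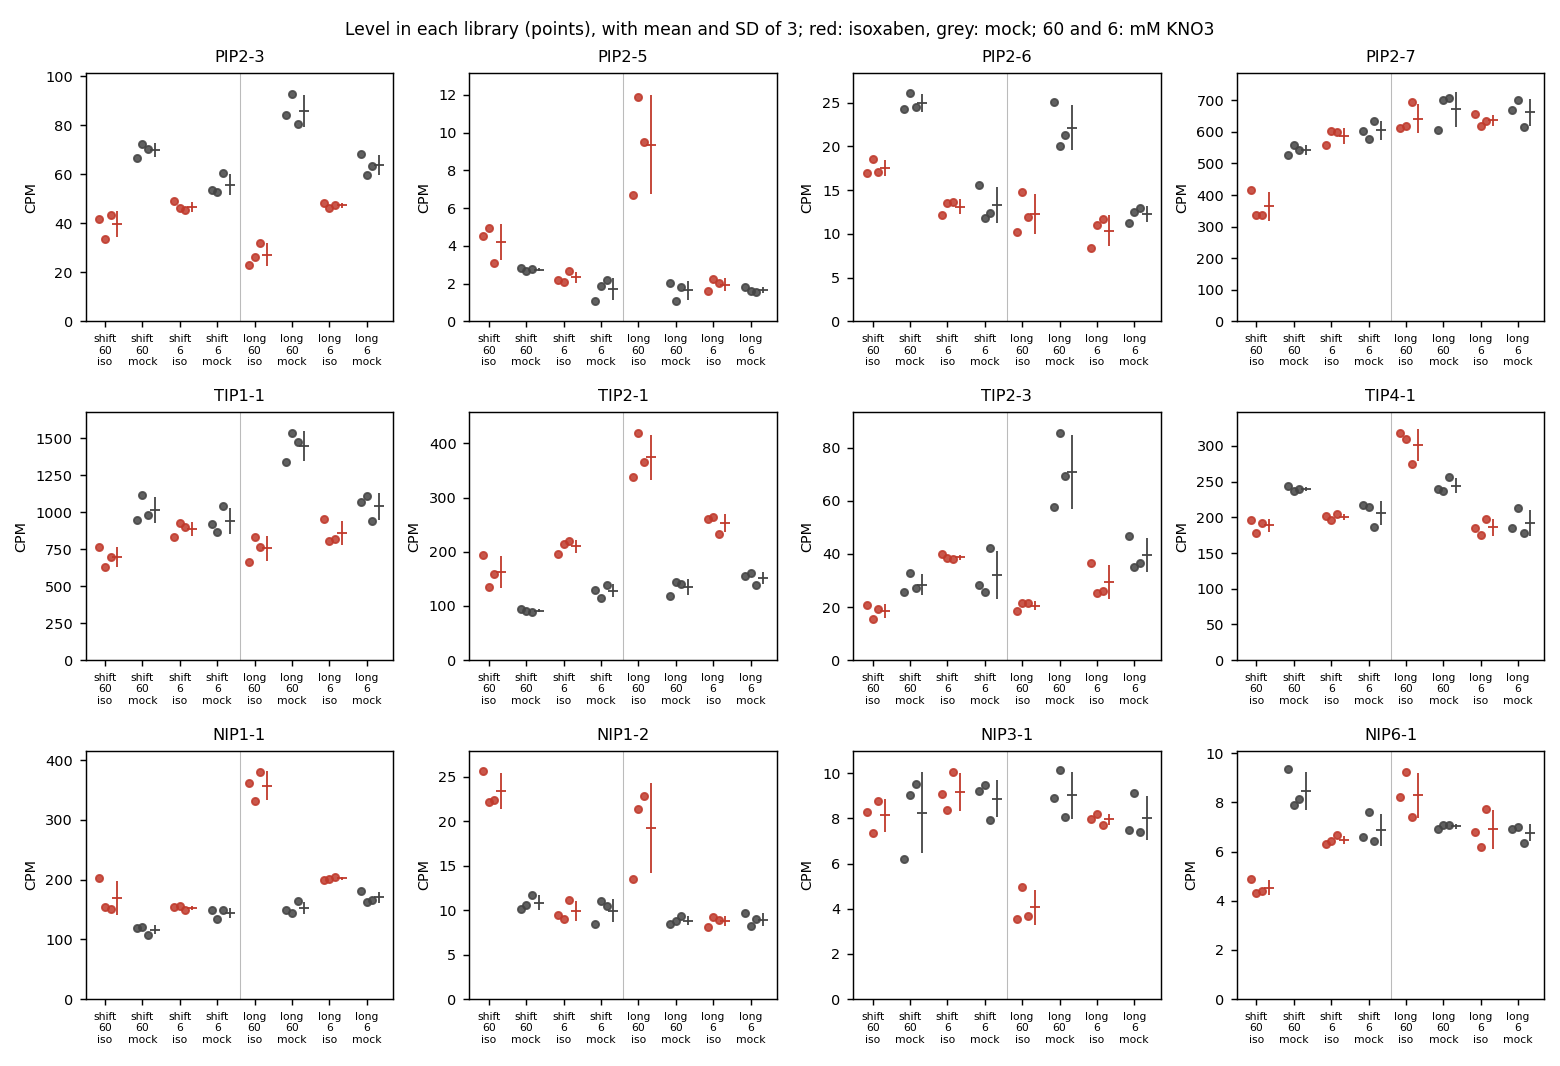
Level in each library, in CPM, of 12 members. Points are libraries, red for isoxaben and grey for mock, with the mean and SD of 3 beside them, and the vertical line separates shift from long-term groups. PIP2-5, TIP2-1 and NIP1-1 stand highest in long-term isoxaben roots at 60 mM KNO3, PIP2-3 and NIP3-1 stand lowest there, and PIP2-7 and NIP6-1 are lowest in shift isoxaben roots at 60 mM.

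TIP genes changed in both directions at 60 mM. Of the 6 tested, 2 rose and 2 fell in shift roots, and 2 rose and 2 fell in long-term roots. These calls, 66.7% of the TIP genes tested in each exposure, stand beside 12.9% of all genes in shift and 31.9% in long-term roots. Those shares are not matched for the high level of the TIP genes. The summed TIP level was 2165 ± 230.2 CPM with isoxaben and 2382 ± 157 CPM with mock in shift roots, and 3003 ± 263 CPM with isoxaben and 3388 ± 288 CPM with mock in long-term roots (SD, n = 3 each), with overlapping ranges in both. TIP2-1, a channel for water and ammonia, was the only member called in all 4 isoxaben comparisons. In shift roots at 60 mM it had 195, 136 and 159.9 CPM with isoxaben, against 94.3, 91.2 and 88.2 CPM with mock (log2 fold change 0.84 with SE 0.11, adjusted p 4.98e-06). In long-term roots at 60 mM it had 339, 419.6 and 365 CPM with isoxaben, against 118, 145 and 141 CPM with mock (log2 fold change 1.48 with SE 0.11, adjusted p 2.43e-10), a 2.78-fold difference. The long-term isoxaben libraries at 60 mM were the highest of all 24, and the isoxaben libraries were above the mock libraries in every setting.

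TIP1-1, an abundant vacuolar channel, fell in both exposures. It had 762, 629 and 695 CPM with isoxaben and 949, 1118 and 982 CPM with mock in shift roots (log2 fold change -0.55 with SE 0.09, adjusted p 1.13e-04). Long-term values of TIP1-1 were 666, 836 and 766 CPM with isoxaben and 1338, 1536 and 1473 CPM with mock (log2 fold change -0.94 with SE 0.09, adjusted p 9.75e-09). Its close relative TIP1-2 was not called with isoxaben in either exposure: TIP1-2 had 924, 767 and 759 CPM with isoxaben and 774, 883 and 859 CPM with mock in shift roots (log2 fold change -0.04, adjusted p 0.881). After long-term treatment TIP1-2 had 1241, 1448 and 1402 CPM with isoxaben and 1102, 1317 and 1301 CPM with mock (log2 fold change 0.14, adjusted p 0.303). The TIP1-2 ranges overlapped in both exposures, while those of TIP1-1 did not.

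TIP2-3 (AT5G47450), which moves ammonia when expressed in yeast, had 20.7, 15.6 and 19.4 CPM with isoxaben and 25.5, 32.7 and 27.1 CPM with mock in shift roots, apart but not called (log2 fold change -0.62, adjusted p 0.0555). Long-term libraries of TIP2-3 had 18.5, 21.4 and 21.4 CPM with isoxaben and 57.6, 85.4 and 69.2 CPM with mock (log2 fold change -1.79 with SE 0.20, adjusted p 8.97e-07). The long-term fall, 3.46-fold, is the largest of any member with isoxaben. TIP2-2, a vacuolar channel of the root, rose in shift roots, with 320.0, 240.0 and 287 CPM with isoxaben and 149, 185 and 169 CPM with mock (log2 fold change 0.75). With long-term exposure it had 152, 225 and 184 CPM with isoxaben and 206, 283 and 259 CPM with mock, ranges that overlapped (log2 fold change -0.41, adjusted p 0.0623). The long-term effect on TIP2-2 was below the shift effect by more than the spread (-1.16 for long-term minus shift, adjusted p 0.00238).

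TIP4-1, a channel that carries urea, was the member with opposite calls. It had 196, 178 and 192 CPM with isoxaben and 243, 237 and 239.7 CPM with mock in shift roots (log2 fold change -0.35). The long-term groups of TIP4-1 had 318, 309 and 275 CPM with isoxaben and 239, 237 and 257 CPM with mock (log2 fold change 0.30). All shift isoxaben libraries were below their mock libraries and all long-term isoxaben libraries were above theirs, and the difference was called (0.65 for long-term minus shift, adjusted p 5.71e-05). All 8 TIP calls at 60 mM were kept in each fit that left out 1 library of the groups compared.

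The summed NIP level at 60 mM was higher in all isoxaben libraries than in all mock libraries of the same exposure: the 9 loci gave 269 ± 33.9 CPM with isoxaben and 213 ± 4.02 CPM with mock in shift roots, and 467 ± 20.0 CPM with isoxaben and 247 ± 11.0 CPM with mock in long-term roots (SD, n = 3 each, no test on sums). Most of that sum is NIP1-1. Of the 7 NIP genes tested, 2 rose and 1 fell in each exposure. That is 42.9% called in each, beside 12.9% of all genes in shift and 31.9% in long-term roots. The genes that rose, NIP1-1 and NIP1-2, were the same in both, and the gene that fell was not.

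NIP1-1, a channel through which arsenite and antimonite enter roots, had 202, 154 and 150.4 CPM with isoxaben and 119, 121 and 107 CPM with mock in shift roots (log2 fold change 0.54 with SE 0.08, adjusted p 2.51e-05). Under long-term treatment it had 361, 332 and 380.1 CPM with isoxaben and 149.7, 143 and 164 CPM with mock (log2 fold change 1.23 with SE 0.08, adjusted p 5.32e-12), a 2.35-fold difference. The ranges were apart in both exposures, and the long-term libraries with isoxaben were the highest of all 24. NIP1-2, a close relative known for carrying aluminium malate, had 25.7, 22.1 and 22.4 CPM with isoxaben and 10.1, 10.5 and 11.7 CPM with mock in shift roots (log2 fold change 1.11 with SE 0.14, adjusted p 9.34e-07). In long-term roots NIP1-2 had 13.5, 21.4 and 22.8 CPM with isoxaben and 8.39, 8.73 and 9.32 CPM with mock (log2 fold change 1.13 with SE 0.14, adjusted p 4.79e-07). The NIP1-2 effects in the 2 exposures differed by 0.01 (SE 0.19) on the log2 scale (adjusted p 0.982), and replicate 1 was the lowest of the long-term isoxaben libraries.

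NIP3-1 (AT1G31885), a channel linked to arsenite uptake, fell in long-term roots. It had 8.28, 7.36 and 8.78 CPM with isoxaben and 6.20, 9.05 and 9.52 CPM with mock in shift roots, ranges that overlapped (log2 fold change -0.02, adjusted p 0.962). Long-term values of NIP3-1 were 3.54, 4.95 and 3.70 CPM with isoxaben and 8.89, 10.1 and 8.07 CPM with mock (log2 fold change -1.15). The long-term isoxaben libraries were the lowest of all 24. NIP6-1 (AT1G80760), a boric acid channel known from shoot nodes, fell in shift roots, with 4.89, 4.33 and 4.39 CPM with isoxaben and 9.35, 7.90 and 8.14 CPM with mock (log2 fold change -0.90 with SE 0.11, adjusted p 1.26e-06). After long-term treatment it had 8.23, 9.23 and 7.40 CPM with isoxaben and 6.92, 7.08 and 7.08 CPM with mock, apart but not called (log2 fold change 0.24, adjusted p 0.103). AT1G80750 on the opposite strand, whose reads could be counted here, was not called in shift roots at 60 mM (log2 fold change -0.026, adjusted p 0.904).

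NIP5-1 (AT4G10380), the main boric acid uptake channel of roots, was not called with isoxaben in any setting, with log2 fold changes of -0.12 and 0.14 at 60 mM and 0.02 and 0.11 at 6 mM for shift and long-term roots in that order. Its isoxaben libraries were all below mock in shift roots at 60 mM and all above mock in long-term roots at both KNO3 levels, differences that did not pass the test. NIP2-1, known to rise when roots lack oxygen, was called in no comparison, although its libraries with isoxaben in long-term roots at 6 mM (1.27, 1.00 and 1.24 CPM) were the highest of all 24, against 0.569, 0.732 and 0.362 CPM with mock (log2 fold change 1.07, adjusted p 0.0647). It had 2 to 24 counts per library beside 83 to 152 for AT2G34380 on the opposite strand. NIP4-2, known from pollen, was called in no comparison either, at group means of at most 1.27 CPM. All 6 NIP calls at 60 mM were kept without any 1 library of the groups compared. The SIP genes were not called with isoxaben in any of the 4 settings, and their summed level stayed within 179.8 to 210.5 CPM over all 24 libraries. SIP1-1 and SIP2-1 (AT3G56950) were called in no comparison, and their highest group mean was 1.12-fold and 1.07-fold their lowest. For SIP1-2, which averaged 3.74 CPM and so adds little to the sum, it was 1.44-fold. Its isoxaben estimates at 6 mM were 0.36 in shift and 0.44 in long-term roots. Both had an unadjusted p under 0.05 in edgeR's test and were not called.

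**Figure D4:**
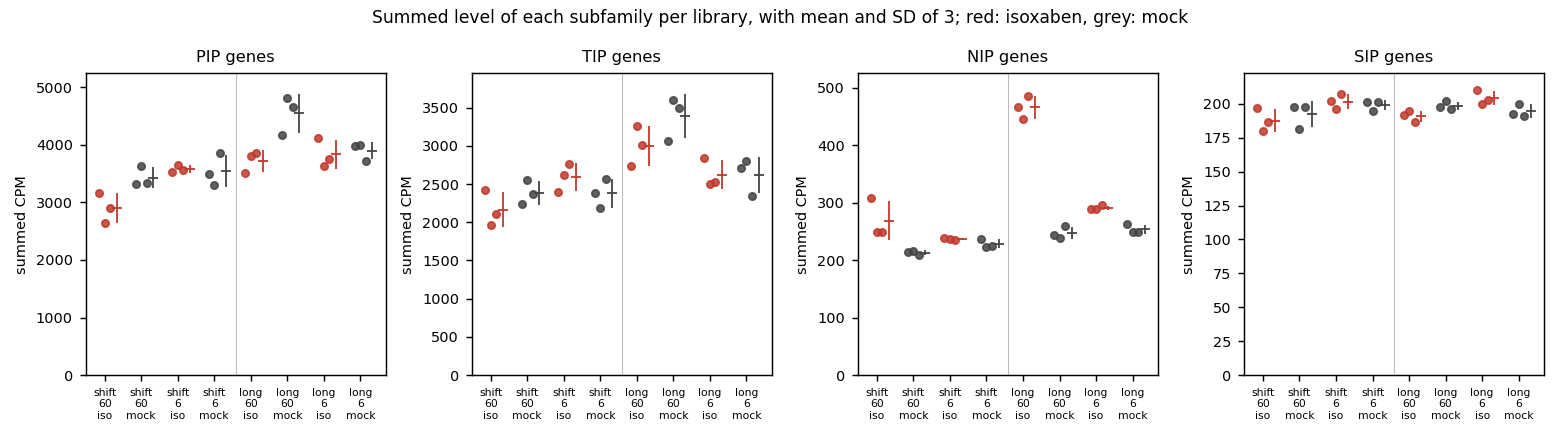
Summed level of each subfamily in each library, in CPM, with the mean and SD of 3. Red points are isoxaben and grey points are mock, and the vertical line separates shift from long-term groups. The NIP sum is highest in long-term isoxaben roots at 60 mM, 446 to 487 CPM, the PIP sum is 2652 to 3165 CPM in shift isoxaben roots at 60 mM, and the SIP sum stays within 179.8 to 210.5 CPM.

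At 6 mM KNO3 isoxaben gave 2 called members of 29 in shift roots (6.9%), beside 0.949% of all genes. In long-term roots it gave 4 of 29 (13.8%), beside 5.69% of all genes. An unadjusted p under 0.05 in edgeR's test was reached by 7 members in shift and 11 in long-term roots. TIP2-1 had 196, 214 and 220.1 CPM with isoxaben and 130.1, 116 and 139 CPM with mock in shift roots (log2 fold change 0.71 with SE 0.11, adjusted p 5.63e-04). Long-term libraries of TIP2-1 had 260.4, 265 and 234 CPM with isoxaben and 155, 161 and 139 CPM with mock (log2 fold change 0.74 with SE 0.11, adjusted p 7.02e-05). TIP2-1 was higher in all isoxaben libraries in both. PIP1-3 had 452, 455 and 458 CPM with isoxaben and 327, 352 and 403 CPM with mock in shift roots, where it rose (log2 fold change 0.34 with SE 0.08, adjusted p 0.0319), and 553, 474 and 539 CPM with isoxaben and 479.5, 468 and 447 CPM with mock in long-term roots, where it was not called (adjusted p 0.291). PIP2-4 had 89.5, 91.5 and 93.4 CPM with isoxaben and 63.0, 69.5 and 76.2 CPM with mock in shift roots (log2 fold change 0.39, adjusted p 0.0502). In long-term roots it rose, with 127, 117 and 124 CPM with isoxaben and 98.7, 84.4 and 82.1 CPM with mock (log2 fold change 0.47 with SE 0.10, adjusted p 0.00297). The isoxaben libraries of PIP2-4 lay above the mock libraries in both exposures, though the shift difference was not called.

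PIP2-3 and PIP1-2 fell in long-term roots at 6 mM. PIP2-3 had 49.1, 46.1 and 45.3 CPM with isoxaben and 53.6, 52.8 and 60.6 CPM with mock in shift roots (log2 fold change -0.25, adjusted p 0.320). With long-term exposure it had 48.5, 46.3 and 47.4 CPM with isoxaben and 68.2, 59.9 and 63.6 CPM with mock (log2 fold change -0.43 with SE 0.09, adjusted p 0.00447). The fall of PIP2-3 at 60 mM exceeded that at 6 mM by more than the spread in both exposures (-0.57 in shift roots, adjusted p 0.0131, and -1.23 in long-term roots, adjusted p 5.34e-07). PIP1-2 had 661, 639 and 589.6 CPM with isoxaben and 681, 679.7 and 711 CPM with mock in shift roots. The long-term groups of PIP1-2 had 673, 600.3 and 553 CPM with isoxaben and 733, 772 and 708 CPM with mock (log2 fold change -0.28 with SE 0.07, adjusted p 0.0215). At 6 mM the call was lost in shift roots for PIP1-3 without isoxaben replicate 1, 2 or 3 or mock replicate 1 or 2 (adjusted p up to 0.266), and PIP1-3 had an adjusted p of 0.0549 when the other groups were left out of the fit. In long-term roots it was lost for PIP1-2 without isoxaben replicate 2 or 3 or mock replicate 1 or 2 (adjusted p up to 0.195).

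Other PIP genes that moved at 60 mM were not called with isoxaben at 6 mM. PIP2-1 had 706, 785 and 743 CPM with isoxaben and 772, 696 and 869.8 CPM with mock in shift roots, and 810.2, 709 and 743 CPM with isoxaben and 765, 784 and 747 CPM with mock in long-term roots. PIP2-5 had 2.19, 2.10 and 2.68 CPM with isoxaben and 1.08, 1.86 and 2.18 CPM with mock in shift roots, and 1.59, 2.22 and 2.04 CPM with isoxaben and 1.81, 1.62 and 1.55 CPM with mock in long-term roots. The ranges of both genes overlapped at 6 mM in both exposures. PIP2-6 had 12.1, 13.6 and 13.6 CPM with isoxaben and 15.6, 11.8 and 12.4 CPM with mock in shift roots, and 8.36, 11.0 and 11.7 CPM with isoxaben and 11.3, 12.5 and 13.0 CPM with mock in long-term roots. PIP2-7 had 557, 604 and 601 CPM with isoxaben and 604, 577 and 636 CPM with mock in shift roots, and 656, 619.7 and 634 CPM with isoxaben and 669.7, 699.9 and 617 CPM with mock in long-term roots. The ranges of PIP2-6 and PIP2-7 overlapped in both exposures.

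Among TIP genes at 6 mM, TIP1-1 had 833, 925 and 899 CPM with isoxaben and 920.3, 865 and 1038 CPM with mock in shift roots, and 951, 806 and 821 CPM with isoxaben and 1068, 1112 and 938 CPM with mock in long-term roots. TIP1-2 had 896, 985 and 1114 CPM with isoxaben and 909, 823 and 966 CPM with mock in shift roots, and 1141, 1029 and 1047 CPM with isoxaben and 1069.8, 1096 and 909 CPM with mock in long-term roots. Ranges of both genes overlapped in both exposures. TIP2-2 had 234, 263 and 291 CPM with isoxaben and 174, 149.7 and 194 CPM with mock in shift roots, and 266, 203 and 206 CPM with isoxaben and 188, 184 and 149 CPM with mock in long-term roots. TIP2-3 had 39.8, 38.3 and 38.0 CPM with isoxaben and 28.2, 25.5 and 42.3 CPM with mock in shift roots, and 36.7, 25.3 and 26.0 CPM with isoxaben and 46.9, 34.97 and 36.7 CPM with mock in long-term roots. For TIP2-2 all isoxaben libraries were the higher ones in both exposures, without a call, while TIP2-3 overlapped in both. TIP4-1 had 201, 196 and 205 CPM with isoxaben and 218, 214 and 187 CPM with mock in shift roots, and 185, 175 and 198 CPM with isoxaben and 185, 213 and 178 CPM with mock in long-term roots, again with overlap.

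NIP genes were not called with isoxaben at 6 mM. NIP1-1 had 153, 156 and 149 CPM with isoxaben and 149.6, 134 and 149 CPM with mock in shift roots, and 200.1, 202 and 205 CPM with isoxaben and 181, 163 and 167 CPM with mock in long-term roots, where all isoxaben libraries were higher (log2 fold change 0.25, adjusted p 0.0803). NIP1-2 had 9.44, 8.98 and 11.1 CPM with isoxaben and 8.44, 11.0 and 10.4 CPM with mock in shift roots, and 8.15, 9.24 and 8.93 CPM with isoxaben and 9.62, 8.16 and 8.94 CPM with mock in long-term roots. Its ranges overlapped in both exposures, and its isoxaben effect at 60 mM exceeded that at 6 mM in both (1.13 in shift roots, adjusted p 0.00110, and 1.15 in long-term roots, adjusted p 3.96e-04). NIP3-1 had 9.10, 8.38 and 10.1 CPM with isoxaben and 9.22, 9.48 and 7.94 CPM with mock in shift roots, and 7.99, 8.19 and 7.69 CPM with isoxaben and 7.50, 9.15 and 7.39 CPM with mock in long-term roots. NIP6-1 had 6.31, 6.44 and 6.66 CPM with isoxaben and 6.57, 7.63 and 6.44 CPM with mock in shift roots, and 6.77, 6.18 and 7.74 CPM with isoxaben and 6.93, 7.01 and 6.36 CPM with mock in long-term roots. NIP3-1 and NIP6-1 overlapped in both exposures.

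Whether the isoxaben effect itself differed was tested as an interaction. Between KNO3 levels, as the effect at 60 mM minus that at 6 mM, 5 members differed in shift roots (2 higher, 3 lower), beside 3.5% of all genes (2.14% and 1.37%). In long-term roots 12 differed (5 higher, 7 lower), beside 11.8% of all genes (5.45% and 6.36%). Between exposures, as the long-term effect minus the shift effect, 11 members differed at 60 mM (6 higher, 5 lower), beside 11.5% of all genes (5.68% and 5.86%). At 6 mM no member passed edgeR's test, beside 0.263% of all genes (0.175% and 0.0876%), with 2 members at an unadjusted p under 0.05 and 0 called by DESeq2.

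The KNO3 level was then compared in mock roots, 60 mM against 6 mM. In long-term roots 11 members were called, 10 higher and 1 lower at 60 mM, beside 6.77% of all genes (2.83% higher, 3.94% lower). In shift roots 6 were called, 3 in each direction, beside 8.2% of all genes (3.32% higher, 4.88% lower). The median log2 fold change of the 29 members was -0.063 in shift roots and 0.17 in long-term roots, beside 0.0013 and -0.0025 over all genes tested. The members called in both were PIP2-6, PIP2-3 and NIP5-1, higher each time.

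Among the members called, PIP2-6 had the largest fold change in both exposures, averaging 24.99 ± 1.00 CPM at 60 mM and 13.3 ± 2.05 CPM at 6 mM in shift roots (SD, n = 3 each; log2 fold change 0.91 with SE 0.12, adjusted p 1.01e-05). In long-term roots it averaged 22.2 ± 2.61 CPM at 60 mM and 12.3 ± 0.882 CPM at 6 mM (SD, n = 3 each; log2 fold change 0.85 with SE 0.12, adjusted p 3.58e-05). Its 60 mM libraries were above all 6 mM libraries in both exposures. PIP2-3 averaged 69.8 ± 2.90 CPM at 60 mM and 55.7 ± 4.31 CPM at 6 mM in shift roots (log2 fold change 0.33 with SE 0.09, adjusted p 0.0266), and 85.9 ± 6.37 CPM at 60 mM and 63.9 ± 4.17 CPM at 6 mM in long-term roots (log2 fold change 0.43 with SE 0.09, adjusted p 0.00378). The 60 mM libraries of PIP2-3 were also the higher ones throughout. NIP5-1 had 68.9, 65.5 and 70.8 CPM at 60 mM and 61.8, 58.8 and 49.8 CPM at 6 mM in shift roots (log2 fold change 0.27 with SE 0.06, adjusted p 0.00821), with a long-term log2 fold change of 0.25. NIP2-1, which had few counts, had larger estimates that did not pass the test: it had 0.246, 0.200 and 0.197 CPM at 60 mM and 0.540, 0.635 and 0.387 CPM at 6 mM in shift roots (log2 fold change -1.25 with SE 0.46, adjusted p 0.102), and 0.354, 0.155 and 0.104 CPM at 60 mM and 0.569, 0.732 and 0.362 CPM at 6 mM in long-term roots (log2 fold change -1.40 with SE 0.47, adjusted p 0.0745). Its 60 mM libraries were below its 6 mM libraries in both exposures, and the long-term difference was called without 60 mM replicate 1 (adjusted p 0.0383).

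In long-term mock roots, the other PIP genes that were higher at 60 mM were PIP2-2 (log2 fold change 0.47, adjusted p 0.00309), PIP1-2 (0.32, adjusted p 0.00719) and PIP2-1 (0.32, adjusted p 0.0167), and PIP2-8 was lower (-0.42). The TIP genes TIP1-1 (0.48, adjusted p 0.00139), TIP4-1 (0.35, adjusted p 0.00201) and TIP2-3 (0.84, adjusted p 0.00894) were higher, as was SIP1-2 (AT5G18290), a channel of the endoplasmic reticulum (0.53). TIP2-3 averaged 70.7 ± 14.0 CPM at 60 mM and 39.5 ± 6.43 CPM at 6 mM (SD, n = 3 each). In shift mock roots, TIP2-1 (-0.49, adjusted p 0.00519), NIP1-1 (-0.32, adjusted p 0.0162) and PIP1-3 (-0.27, adjusted p 0.0285) were lower at 60 mM. TIP2-1 averaged 91.3 ± 3.06 CPM at 60 mM and 128 ± 11.8 CPM at 6 mM there, without overlap, while the PIP1-3 ranges overlapped. In long-term mock roots 3 of the 7 endodermis genes were also higher at 60 mM, beside 2.83% of all genes. Their sums were 562 to 668 CPM at 60 mM and 407 to 437 CPM at 6 mM, and their part in the aquaporin result was not tested.

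In long-term mock roots the count of called members was 7 when replicate 1 at 6 mM was left out, and 6 when replicate 3 at 6 mM or replicate 2 at 60 mM was left out. Calls were lost there for TIP2-3 without 60 mM replicate 2 (adjusted p up to 0.0545), PIP1-2 without 60 mM replicate 2 or 6 mM replicate 3 (adjusted p up to 0.0515), PIP2-1 without 60 mM replicate 2 or 3 or 6 mM replicate 1 or 3 (adjusted p up to 0.119) and NIP5-1 without 60 mM replicate 3 or 6 mM replicate 1 or 3 (adjusted p up to 0.0965). They were lost also for SIP1-2 without 60 mM replicate 2 or 6 mM replicate 1, 2 or 3 (adjusted p up to 0.226) and PIP2-8 without 60 mM replicate 1, 2 or 3 or 6 mM replicate 1, 2 or 3 (adjusted p up to 0.218), so the PIP2-8 call needed every library. SIP1-2 was not called by DESeq2 (adjusted p 0.0722). In shift mock roots the count was 3 without 6 mM replicate 3 or 60 mM replicate 3. Calls were lost there for PIP1-3 without 60 mM replicate 1 or 3 or 6 mM replicate 2 or 3 (adjusted p up to 0.233), PIP2-3 without 60 mM replicate 2 or 3 or 6 mM replicate 1 or 2 (adjusted p up to 0.113), NIP1-1 without 60 mM replicate 3 or 6 mM replicate 1 or 3 (adjusted p up to 0.0948) and NIP5-1 without 6 mM replicate 3 (adjusted p up to 0.0976). When the other groups were left out of the fit, the adjusted p was 0.0536 for TIP2-3 and 0.0577 for SIP1-2 in long-term roots, and 0.115 for PIP1-3 and 0.0746 for NIP5-1 in shift roots.

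Mock roots of the shift and long-term groups were compared last, groups that differ by mesh and transfer. At 60 mM, 13 members were called and all were lower in shift roots, where 3.3% of all genes were called, 1.46% higher and 1.85% lower. At 6 mM, 2 members were called, both lower in shift roots, beside 0.642% of all genes (0.389% higher, 0.253% lower). The median log2 fold change of the members at 60 mM was -0.30, beside 0.0019 over all genes tested, and 22 of 29 estimates were negative. The summed PIP level at 60 mM was 3429 ± 179 CPM in shift and 4547 ± 338 CPM in long-term mock roots, and the summed TIP level was 2382 ± 157 CPM in shift and 3388 ± 288 CPM in long-term mock roots (SD, n = 3 each), with no overlap in either.

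At 60 mM the members lower in shift mock roots were 8 PIP, 4 TIP and 1 NIP genes. TIP2-3 fell most, averaging 28.4 ± 3.81 CPM in shift and 70.7 ± 14.0 CPM in long-term roots (log2 fold change -1.31 with SE 0.19, adjusted p 6.79e-04). PIP2-4 averaged 58.4 ± 3.78 CPM in shift and 92.9 ± 6.15 CPM in long-term roots (log2 fold change -0.67 with SE 0.10, adjusted p 2.36e-04). PIP1-1, a PIP1 water channel, had 291, 336 and 325 CPM in shift and 451, 542 and 521 CPM in long-term roots (log2 fold change -0.67 with SE 0.11, adjusted p 0.00113). None of these 3 overlapped between the groups. TIP1-2 averaged 838 ± 57.4 CPM in shift and 1240.1 ± 119 CPM in long-term roots (log2 fold change -0.56 with SE 0.10, adjusted p 8.74e-04), the only comparison in which it was called. TIP1-1 averaged 1016 ± 89.4 CPM in shift and 1449 ± 101 CPM in long-term roots (log2 fold change -0.51 with SE 0.09, adjusted p 0.00189). The remaining calls were PIP2-2 (-0.57, adjusted p 0.00119), PIP1-3 (-0.42, adjusted p 0.00219), TIP2-1 (-0.56, adjusted p 0.00432), and NIP1-1, PIP1-2, PIP1-5, PIP2-1 and PIP2-7, with log2 fold changes from -0.48 to -0.31. Of the 7 endodermis genes, 3 were also lower, beside 1.85% of all genes. Their sums were 411 to 502 CPM in shift and 562 to 668 CPM in long-term mock roots, and their part was not tested.

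At 6 mM, PIP1-4 had 115, 111 and 116 CPM in shift and 151, 152 and 129 CPM in long-term mock roots (log2 fold change -0.34 with SE 0.07, adjusted p 0.0231). PIP1-3 averaged 361 ± 39.2 CPM in shift and 465 ± 16.4 CPM in long-term mock roots (log2 fold change -0.37 with SE 0.08, adjusted p 0.0242). PIP1-3 was thus the only member lower in shift mock roots at both KNO3 levels by this test. The calls at 6 mM were lost for PIP1-3 without shift replicate 1 or 2 or long-term replicate 1, 2 or 3 (adjusted p up to 0.210) and PIP1-4 without shift replicate 1 or 2 or long-term replicate 1 or 2 (adjusted p up to 0.158), and no member was called without long-term replicate 1 or 2 or shift replicate 1 or 2. At 60 mM the count was 8 without long-term replicate 3. Calls were lost at 60 mM for PIP1-2 without long-term replicate 2 or 3 (adjusted p up to 0.0673), PIP1-5 without shift replicate 1 or 3 or long-term replicate 2 or 3 (adjusted p up to 0.0731) and NIP1-1 without long-term replicate 3 (adjusted p up to 0.0612). They were lost also for PIP2-1 without shift replicate 1 or 3 or long-term replicate 2 or 3 (adjusted p up to 0.114) and PIP2-7 without shift replicate 1 or 3 or long-term replicate 2 or 3 (adjusted p up to 0.135). Whether shift and long-term roots were grown or processed at different times is not given in the sources used here, so exposure and any such batch cannot be told apart.

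**Figure D5:**
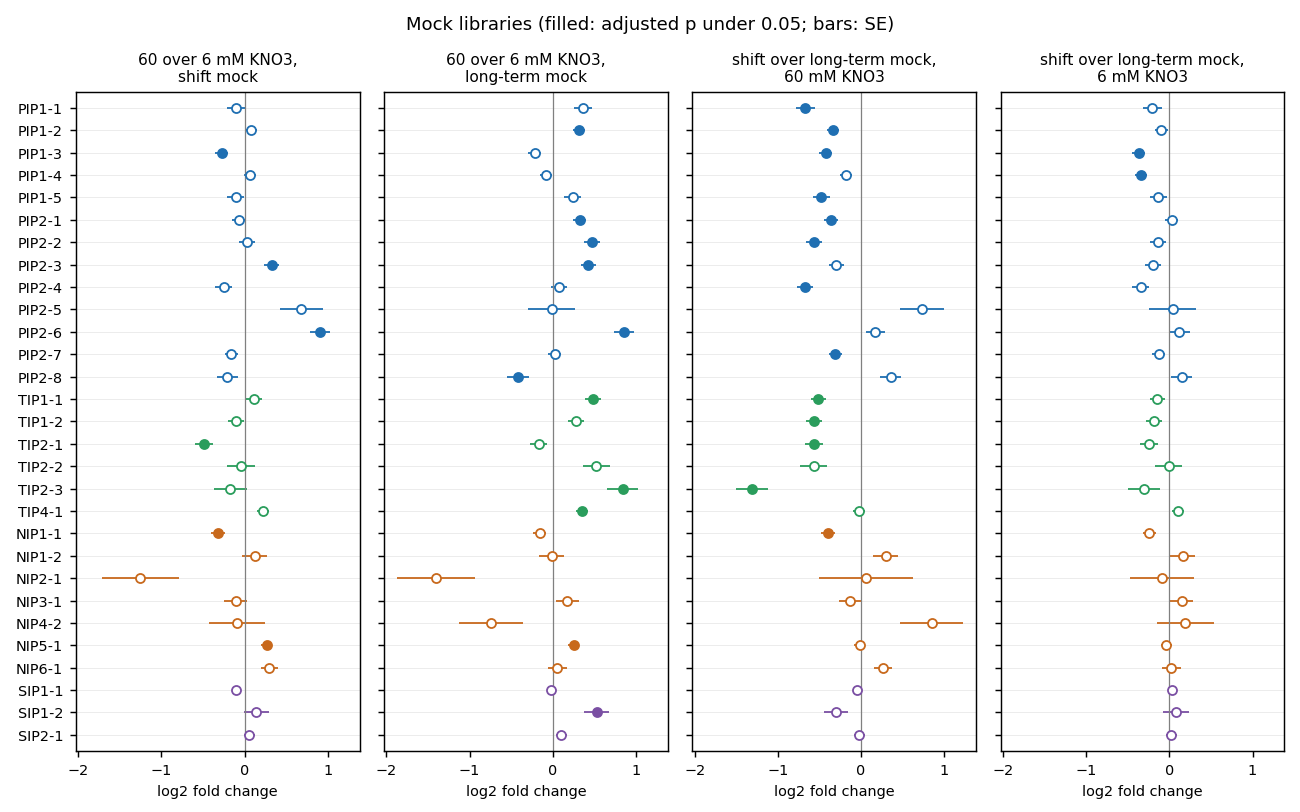
Log2 fold change in mock roots for the 29 members tested: 60 over 6 mM KNO3 in shift and long-term roots, and shift over long-term roots at 60 and 6 mM. Points are estimates coloured by subfamily, bars are SE, and filled points have an adjusted p under 0.05. All 13 filled points of shift over long-term at 60 mM lie below 0, and 10 of the 11 filled points of KNO3 in long-term roots lie above 0.

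The 6 loci below the filter on low counts were TIP1-3 (AT4G01470), TIP3-1 (AT1G73190), BETA-TIP (AT1G17810), TIP5-1 (AT3G47440), NIP4-1 (AT5G37810) and NIP7-1 (AT3G06100), all known from seeds, pollen or anthers. TIP5-1 and NIP4-1 had no count in any library, which allows at most 0.167 CPM. TIP3-1 had at most 4 counts, in long-term mock replicate 2 at 60 mM. TIP1-3 had 6, 3 and 3 counts with isoxaben and 1, 2 and 1 with mock in shift roots at 60 mM, and 1, 1 and 3 with isoxaben and 1, 1 and 0 with mock at 6 mM. Its long-term counts were 2, 3 and 3 with isoxaben and 1, 1 and 1 with mock at 60 mM, and 0, 1 and 1 with isoxaben and 1, 0 and 0 with mock at 6 mM. Only shift isoxaben replicate 1 at 60 mM exceeded 3 counts. NIP7-1 had 3, 3 and 4 counts with isoxaben and 2, 1 and 1 with mock in shift roots at 60 mM, and 1, 3 and 3 with isoxaben and 3, 1 and 2 with mock at 6 mM. Under long-term treatment it had 3, 5 and 5 counts with isoxaben and 0, 4 and 3 with mock at 60 mM, and 1, 0 and 3 with isoxaben and 1, 2 and 2 with mock at 6 mM. BETA-TIP had 11 counts in all, of which 5, 1 and 1 came from long-term roots with isoxaben at 60 mM and 2 from long-term mock replicate 2 at 60 mM. In that mock library, 8 seed storage genes summed to 11.0 CPM, against at most 2.33 CPM in the other 23 libraries. Next came the long-term isoxaben libraries at 60 mM, with 1.77, 1.78 and 2.33 CPM, and the remaining libraries had at most 0.906 CPM. At 60 mM, TIP1-3 counts in every isoxaben library exceeded those in the mock libraries of the same exposure, as did NIP7-1 counts in shift roots. Most of these counts lie near or below 3, where counting error alone can order libraries this way. These 6 loci were not tested.

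Genes that act with the channels were counted in the same fit. Of 13 loci of proteins that traffic or modify PIPs, 12 were tested. Their calls with isoxaben at 60 mM, 2 of 12 (16.7%) in each exposure, stand beside 12.9% of all genes in shift and 31.9% in long-term roots. In shift roots at 60 mM 2 rose: SYP121, a syntaxin that delivers PIPs to the plasma membrane (log2 fold change 0.23, adjusted p 0.00927), and RMA1, an E3 ubiquitin ligase that acts on PIP2-1 (0.34, adjusted p 0.0295). Long-term isoxaben at 60 mM went with lower levels of 2: OST1, a kinase that phosphorylates PIP2-1, at 14.0 ± 0.339 CPM with isoxaben and 18.7 ± 0.495 CPM with mock (log2 fold change -0.42 with SE 0.08, adjusted p 9.35e-05), and RMA2, a ligase related to RMA1 (-0.65, adjusted p 0.00400). None was called at 6 mM. OST1 was higher at 60 than at 6 mM in shift mock roots (0.28, adjusted p 0.0194). That was 1 of 12 (8.33%) called, beside 8.2% of all genes. XND1, a NAC factor of xylem that is known to lower root water transport, was lower in shift than in long-term mock roots at 60 mM (-0.97, adjusted p 0.0376). XND1 averaged only 0.907 CPM in shift and 1.78 CPM in long-term roots there. It was 1 of 12 (8.33%) called, beside 3.3% of all genes. At 60 mM the long-term effect was below the shift effect for RMA2 (-0.98, adjusted p 0.00562) and OST1 (-0.33, adjusted p 0.0445). These were 2 of 12 (16.7%), beside 11.5% of all genes. Calls were lost with isoxaben in shift roots for SYP121 without isoxaben replicate 3 (adjusted p up to 0.0923) and RMA1 without isoxaben replicate 1 or 3 or mock replicate 1 or 2 (adjusted p up to 0.202). With KNO3 in shift mock roots the call was lost for OST1 without 60 mM replicate 3 or 6 mM replicate 2 (adjusted p up to 0.127), and between mock groups for XND1 without shift replicate 1 or 2 or long-term replicate 1 or 2 (adjusted p up to 0.253). Between exposures it was lost for OST1 without shift isoxaben replicate 1 or 2 or shift mock replicate 1 or 2 or long-term isoxaben replicate 1, 2 or 3 or long-term mock replicate 1, 2 or 3 (adjusted p up to 0.122).

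Boron exporters work beside NIP5-1, and 5 of their 7 loci were tested. With isoxaben at 60 mM, 1 of 5 (20%) was called in shift roots, where 12.9% of all genes were, and 2 of 5 (40%) in long-term roots, where 31.9% were. BOR1, which loads boron into the xylem, averaged 156 ± 6.61 CPM with isoxaben and 127 ± 4.90 CPM with mock in shift roots at 60 mM (log2 fold change 0.31 with SE 0.07, adjusted p 0.00151). In long-term roots at 60 mM it averaged 108 ± 10.5 CPM with isoxaben and 124 ± 3.80 CPM with mock (log2 fold change -0.20 with SE 0.07, adjusted p 0.0241), with overlapping ranges. BOR4, an exporter known for boron tolerance, fell in long-term roots at 60 mM (-0.44, adjusted p 0.00350), and BOR5 fell in long-term roots at 6 mM (-0.94, adjusted p 0.00258). At 6 mM that was 1 of 5 (20%), beside 5.69% of all genes. In mock roots, BOR1 was higher at 60 than at 6 mM in shift (0.34, adjusted p 0.00132) and long-term roots (0.24, adjusted p 0.0225), as was BOR4 in shift roots (0.60, adjusted p 7.86e-04). These were 2 of 5 (40%) in shift and 1 of 5 (20%) in long-term roots, beside 8.2% and 6.77% of all genes. NIP5-1 was higher at 60 mM in the same 2 comparisons. The isoxaben effect on BOR1 at 60 mM was lower in long-term than in shift roots (-0.50, adjusted p 5.14e-04), and that on BOR5 in long-term roots was higher at 60 than at 6 mM (1.07, adjusted p 0.00545). Each was 1 of 5 (20%) called, beside 11.5% and 11.8% of all genes. In long-term roots the isoxaben call at 60 mM was lost for BOR1 without isoxaben replicate 1 or 3 or mock replicate 1 or 2 (adjusted p up to 0.152), and the KNO3 call for BOR1 without 60 mM replicate 1 or 2 or 6 mM replicate 1 or 3 (adjusted p up to 0.134).

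Of the proton pumps that share the vacuolar membrane with the TIPs, all 5 loci were tested. With isoxaben at 60 mM, 1 of 5 (20%) was called in shift roots, beside 12.9% of all genes, and 3 of 5 (60%) in long-term roots, beside 31.9%. With isoxaben in long-term roots at 60 mM, AVP1, the vacuolar pyrophosphatase, rose to 815 ± 15.8 CPM against 696 ± 24.2 CPM with mock (log2 fold change 0.23 with SE 0.06, adjusted p 0.00660). The vacuolar ATPase genes VHA-A (0.19, adjusted p 0.0430) and VHA-A2 (0.17, adjusted p 0.0291) rose as well. Those calls were lost for VHA-A without isoxaben replicate 2 or 3 or mock replicate 1, 2 or 3 (adjusted p up to 0.177) and VHA-A2 without isoxaben replicate 2 or 3 or mock replicate 2 or 3 (adjusted p up to 0.163). VHA-B1 fell in shift roots at 60 mM (-0.20, adjusted p 0.0319), a call lost for VHA-B1 without isoxaben replicate 2 or 3 or mock replicate 2 or 3 (adjusted p up to 0.172). For VHA-A2 the long-term effect exceeded the shift effect at 60 mM (0.33, adjusted p 0.0106), 1 of 5 (20%) beside 11.5% of all genes. No pump was called with KNO3 or with exposure in mock roots.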

How the data were processed

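RNA from roots was sequenced as polyA libraries in 24 samples. The deposited table holds whole-number read counts per gene, not normalized, made by the authors with STAR 2.7.9a on build TAIR10, with DESeq2 1.32.0 also named, per the submitters' processing notes. How strand, the annotation release and reads that map to several places were handled is not given in the sources used here, and overlapping or near-identical genes may share counts. All columns matched a sample label.

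From these counts, 20546 genes passed edgeR's filterByExpr over the 8 groups. A model with 8 group means was fitted with edgeR 4.0.16 (TMM scaling, robust quasi-likelihood, 16 residual degrees of freedom, limma 3.58.1, R 4.3.3). The common biological coefficient of variation was 7.66%. All 12 comparisons were contrasts of this fit, with p-values adjusted by Benjamini-Hochberg over the 20546 genes and called under 0.05. The log2 fold changes use a prior count of 0.125, and the SE is the log2 fold change divided by the root of the F statistic. Values in CPM use the TMM-adjusted library size, and CPM per kb the union of exons in the RefSeq annotation of TAIR10.1, which holds 32548 of the genes. Sequences were read from the same assembly and matched by locus. The fitting was tested on simulated data. Tables and plots used Python 3.11.15, pandas 2.3.3 and matplotlib 3.10.9.

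Full statistics are given for at most 8 called members per comparison, those with the smallest adjusted p, and called genes of related lists for at most 3 per list and comparison. The family as a subject, the gene lists and the marker lists were chosen with earlier results of these data known, while membership in the family follows from the locus alone. Alternatives were RLE scaling, no filter, a replicate block, only the libraries compared, DESeq2 1.42.0 and leaving out each library. Replicate numbers were checked and gave no consistent sign of pairing. Still, 5 of the 8 libraries numbered 1 correlated best with another of that number, so pairing is not excluded.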

Additional observations from a re-analysis of the deposited data

Results flagged for a closer look

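Over the 29 members tested, the isoxaben effect on 28 member and comparison pairs differed between groups by an interaction term in edgeR's quasi-likelihood fit, at an adjusted p under 0.05. Many of all genes also differed, with shares given below. Each value is a difference of 2 log2 fold changes.

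At 60 mM minus 6 mM in shift roots, 5 of 29 (17.2%) differed, beside 3.5% of all genes. The effect was higher for NIP1-2 (1.13, adjusted p 0.00110) and NIP1-1 (0.46, adjusted p 0.0239). It was lower for NIP6-1 (-0.81, adjusted p 0.00249), PIP2-3 (-0.57, adjusted p 0.0131) and PIP2-7 (-0.53, adjusted p 0.00399). The call was lost for NIP1-1 without 60 mM isoxaben replicate 1 or 60 mM mock replicate 3 or 6 mM isoxaben replicate 3 or 6 mM mock replicate 1 or 3 (adjusted p up to 0.0792). When the other groups were left out of the fit, NIP1-1 had an adjusted p of 0.0782.

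At 60 mM minus 6 mM in long-term roots, 12 of 29 (41.4%) differed, beside 11.8% of all genes. The effect was higher for PIP2-5 (2.27, adjusted p 9.30e-05), NIP1-2 (1.15, adjusted p 3.96e-04), NIP1-1 (0.98, adjusted p 1.30e-06), TIP2-1 (0.74, adjusted p 0.00175) and TIP4-1 (0.34, adjusted p 0.0226). Lower effects were those on TIP2-3 (-1.36, adjusted p 0.00266), PIP2-3 (-1.23, adjusted p 5.34e-07), NIP3-1 (-1.14, adjusted p 4.05e-04) and TIP2-2 (-0.79, adjusted p 0.0334). PIP2-1 (-0.73, adjusted p 9.31e-05), TIP1-1 (-0.66, adjusted p 9.79e-04) and PIP2-6 (-0.61, adjusted p 0.0251) were lower as well. Calls were lost for PIP2-6 without 60 mM isoxaben replicate 1 or 60 mM mock replicate 1 or 6 mM isoxaben replicate 2 or 3 or 6 mM mock replicate 1 (adjusted p up to 0.0819), TIP4-1 without 60 mM isoxaben replicate 1 or 2 or 60 mM mock replicate 1 or 2 or 6 mM isoxaben replicate 1 or 2 or 6 mM mock replicate 2 (adjusted p up to 0.0937) and TIP2-2 without 60 mM isoxaben replicate 1 or 3 or 60 mM mock replicate 2 or 3 or 6 mM isoxaben replicate 1 or 6 mM mock replicate 3 (adjusted p up to 0.0953). TIP2-2 had an adjusted p of 0.0777 when the other groups were left out of the fit.

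For the long-term minus the shift effect at 60 mM, values were higher for PIP2-5 (1.89, adjusted p 2.47e-04), NIP6-1 (1.14, adjusted p 1.47e-05), NIP1-1 (0.69, adjusted p 1.92e-04), TIP4-1 (0.65, adjusted p 5.71e-05), TIP2-1 (0.64, adjusted p 0.00690) and PIP2-7 (0.51, adjusted p 0.00208). They were lower for TIP2-3 (-1.18, adjusted p 0.00992), TIP2-2 (-1.16, adjusted p 0.00238), NIP3-1 (-1.13, adjusted p 4.40e-04), PIP2-3 (-0.85, adjusted p 9.99e-05) and PIP2-1 (-0.37, adjusted p 0.0401). The call was lost for PIP2-1 without shift isoxaben replicate 1 or 3 or shift mock replicate 1 or 3 or long-term isoxaben replicate 1 or long-term mock replicate 2 or 3 (adjusted p up to 0.133). With the other groups left out of the fit, PIP2-1 had an adjusted p of 0.0768. In the same comparison the 5 root hair markers were all higher and the 6 xylem markers all lower. Of 3 markers each, 2 were higher for root cap, and 1 was lower for phloem and 1 for dividing cells. No endodermis or photosynthesis marker was called. Among all genes, 5.68% were higher and 5.86% lower, and the part of these cell types was not tested.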

How the results depend on the processing

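Of the 97 called values of members, 97 kept direction and threshold under RLE scaling, without the filter on low counts and with a replicate block, which changed no call, 96 did so with DESeq2 and 89 when only the libraries compared were fitted. Same-numbered libraries deviated with correlations of -0.155 to 0.274, and 5, 1 and 1 of 8 libraries correlated best with their own number. No called value reversed. Leaving out 1 library ended 29 of the 97 calls.

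Counts of called members moved by over 1.5 times as follows. Isoxaben in shift roots at 6 mM gave 4 with DESeq2 and 1 to 3 without 1 library (1 without isoxaben replicate 1, 2 or 3 or mock replicate 1 or 2), against 2. Isoxaben in long-term roots at 6 mM gave 7 with only the libraries compared, against 4. Leaving out 1 library gave 3 to 5 for KNO3 in shift mock roots (3 without replicate 3 of either level) against 6, and 6 to 14 for KNO3 in long-term mock roots against 11. For shift against long-term mock roots it gave 8 to 14 at 60 mM (8 without long-term replicate 3) against 13, and 0 to 2 at 6 mM (0 without replicate 1 or 2 of either exposure, 1 without long-term replicate 3) against 2. The cause was not tested. Ranges without 1 library were 13 to 15 and 14 to 18 for isoxaben at 60 mM in shift and long-term roots, and 3 to 4 at 6 mM in long-term roots. For the interactions they were 4 to 6 and 9 to 12 with KNO3 in shift and long-term roots, and 10 to 13 and 0 with exposure at 60 and 6 mM. Depth limits NIP2-1 most among the members tested, at 2 to 24 counts a library.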
